A study of Danio rerio with 6 samples.

Results

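The genes described here were 10 interferon-stimulated and interferon regulatory factor (Irf) genes of the zebrafish, chosen by name: isg15, mxa, mxb, rsad2, ifih1, dhx58, irf1b, irf3, irf7 and irf9. The choice was made with earlier results of these data known. All 10 were found among the 15419 gene symbols of the count table. Bulk mRNA sequencing was performed on dissected larval guts, taken 5 days post-fertilization (dpf). The il26KO genotype had 3 libraries, from larvae of an il26-/- line generated with CRISPR/Cas9, and the WT genotype had 3 libraries, from larvae of wild-type clutchmate stock kept in separate tanks. Each library pooled 10 to 15 guts, and the labels give no treatment for either genotype. The knockout affects all cells of the larva and not a single cell type, and a single il26-/- line was described, so that a difference between the line and the stock and a difference due to il26 cannot be told apart.

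Interferons are secreted cytokines that are induced when viral nucleic acid is sensed in a cell. Cytosolic sensors of the RIG-I family signal through the adaptor Mavs and the kinase Tbk1 to Irf3 and Irf7, transcription factors that switch on the interferon genes. Secreted interferon then binds its receptors, and Jak kinases activate a transcription factor complex that contains Irf9 and induces interferon-stimulated genes (ISGs), many of them antiviral. In mice, the gut microbiota also sets a resting level of this programme, and IL-26, a cytokine of the IL-10 family with bactericidal activity, was studied here for its effect on the early-life gut. Whether these genes differed between il26KO and WT guts was therefore compared gene by gene.

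Libraries held 15693057 to 28303340 counts in il26KO and 23247771 to 27225697 counts in WT. Levels are given as CPM, counts scaled to a common library size after edgeR's TMM normalization, and 3 counts in a library, taken as the smallest detectable amount, corresponded to 0.106 to 0.192 CPM. The targeted gene il26 was listed at 0 counts in all 6 libraries, so it could not serve as a check of the genotypes. The tissue label was met by most of its markers: the enterocyte gene vil1 had 43669 to 85206 counts in every library. Of 14 named enterocyte markers, 12 were listed and all 12 had counts, but fabp2 had only 2 to 12 in a library. A listed 0 was not read as absence. The insulin gene ins was at 0 in every library, although the glucagon gene gcga had 770 to 1991 counts and the pancreas gene prss1 178912 to 363480. Which cells gave the gcga counts was not tested.

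Of the 10 genes, 7 had enough counts to be tested between the genotypes (isg15, ifih1, dhx58, irf1b, irf3, irf7 and irf9), with 54 to 590 counts in every library. The other 3 (mxa, mxb and rsad2) had between 0 and 5 counts in every library and were set aside. None of the 7 tested genes passed an adjusted p-value of 0.05 in the edgeR quasi-likelihood test, in which 0.108% of all 11095 tested genes passed (12 genes). At an unadjusted p-value below 0.05 there was 1 of the 7 genes, irf1b, against 6.03% of all tested genes. DESeq2 called 0 of the 7, against 0.748% of all tested genes (83 genes), and the edgeR likelihood ratio test called 1, again irf1b, against 0.838% (93 genes). Of the 7 genes, irf1b had the lowest level in il26KO relative to WT and isg15 the widest spread between libraries.

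**Figure D1:**
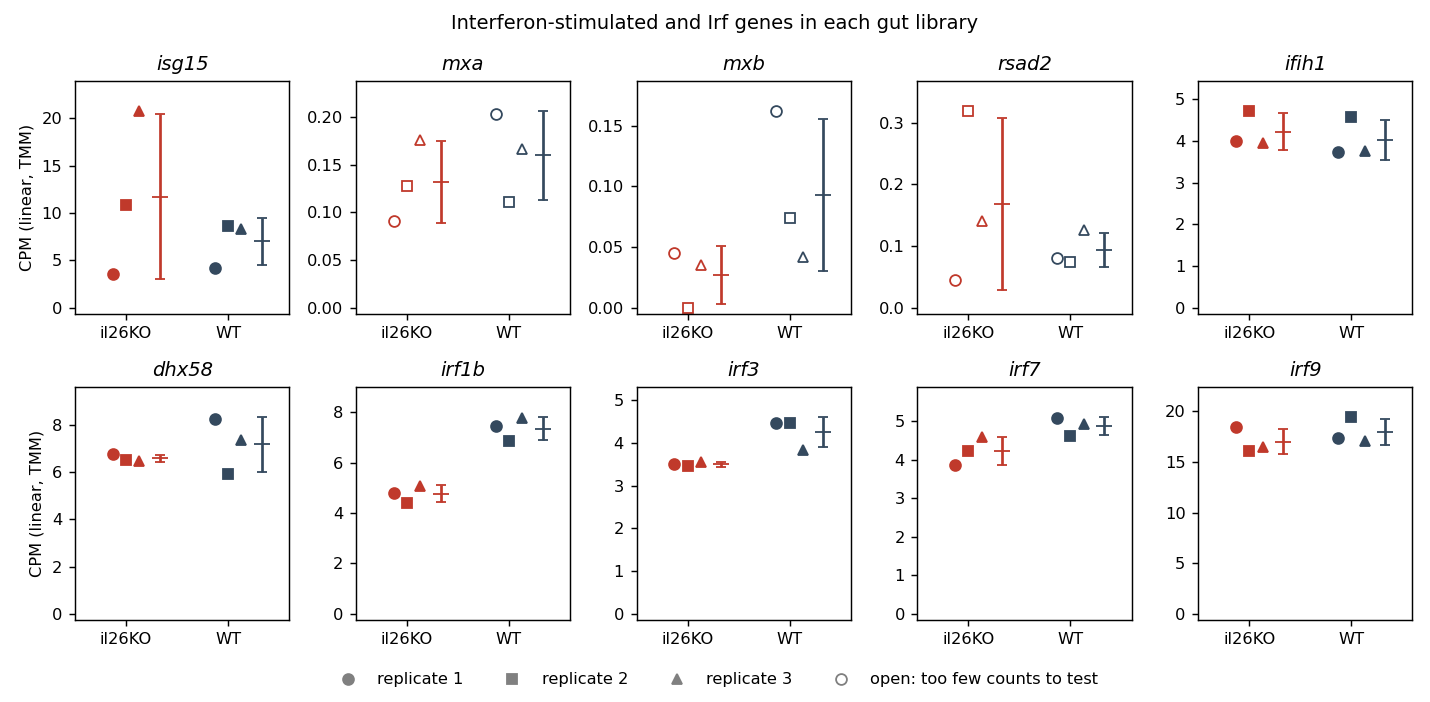
Level of each of the 10 genes in CPM (linear axis, a separate scale for each gene) in the 3 il26KO libraries (red, left) and the 3 WT libraries (blue, right). Symbols mark the replicate number, bars the mean and SD (n = 3 each), and open symbols the 3 genes with too few counts to test. irf1b lies between 4.41 and 5.08 CPM in il26KO and between 6.85 and 7.77 CPM in WT, and isg15 ranges from 3.54 to 20.8 CPM within il26KO.

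Among the antiviral effectors, isg15 encodes a ubiquitin-like protein that is conjugated to other proteins during the interferon response. It had 3.54, 10.9 and 20.8 CPM in il26KO replicates 1, 2 and 3, against 4.18, 8.58 and 8.31 CPM in WT replicates 1, 2 and 3. These values came from 78, 170 and 590 counts in il26KO and from 103, 233 and 199 counts in WT. The il26KO libraries held both the lowest and the highest level, so that all 3 WT libraries lay between them. The mean was 11.7 ± 8.67 CPM in il26KO and 7.03 ± 2.47 CPM in WT (SD, n = 3 each). isg15 thus had a log2 fold change of 0.76 ± 0.55 (SE), with a 95% confidence interval of -0.51 to 2.02 and an edgeR adjusted p-value of 0.901. This interval spans a 0.704-fold to a 4.05-fold level in il26KO relative to WT, so that neither a moderate decrease nor a large increase was distinguishable from no difference with these libraries.

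Single libraries moved the isg15 difference. Without il26KO replicate 3 the log2 fold change was 0.0043 ± 0.49 (SE), and without il26KO replicate 1 it was 1.18 ± 0.35 (SE; edgeR unadjusted p = 0.0121, adjusted p = 0.789). Without WT replicate 1 it was 0.48 ± 0.58 (SE). Within the genotypes, isg15 counts varied with a chi-square of 84.9 per degree of freedom, where counting error alone gives about 1. The range of isg15 over the 6 libraries was 2.53 on the log2 CPM scale (5.87-fold), which was at least as wide as that of 99.2% of all tested genes.

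The spread of isg15 across the il26KO libraries was set beside that of the other genes. The CPM ratio of il26KO replicate 3 over il26KO replicate 1 was 5.87 for isg15, and 0.891 to 1.19 for the other 6 tested members. For the 16 tested genes of a further list of ISGs the same ratio ranged from 0.482 to 1.38, with a median of 0.978. Those libraries held the highest and the lowest isg15 level, so this ratio does not compare the genes on equal terms. Over all 6 libraries the log2 CPM range was 2.53 for isg15 and 0.270 to 0.806 for the other 6 tested members. It was 0.197 to 1.497 for the 16 further ISGs, the widest being that of ifit15, from 4 to 17 counts in a library. Markers of other tissues and cell types were summed in the same libraries, with liver and pancreas separated after the values were seen. The 7 pancreas genes of the lists summed to 21342, 33243 and 33833 CPM in il26KO replicates 1 to 3, against 34530, 26836 and 31443 CPM in WT replicates 1 to 3. The 5 liver genes summed to 7185, 5802 and 6634 CPM in il26KO replicates 1 to 3, against 3904, 9130 and 7795 CPM in WT replicates 1 to 3. For 17 listed leukocyte markers the sum was 38.6, 44.4 and 44.7 CPM in il26KO replicates 1 to 3, and 37.4 to 42.6 CPM in WT. For 6 endothelial markers it was 113, 106 and 98.9 CPM in il26KO replicates 1 to 3, and 94.9 to 108 CPM in WT. For 9 muscle markers it was 4206, 3368 and 3444 CPM in il26KO replicates 1 to 3, and 2933 to 4040 CPM in WT. That list joined skeletal muscle genes with smooth muscle genes of the gut wall (acta2, tagln and myh11a), so its sum does not give skeletal muscle alone. The part of these tissues in the isg15 values was not tested, and in bulk samples fewer cells of a type and less RNA per cell cannot be told apart.

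**Figure D2:**
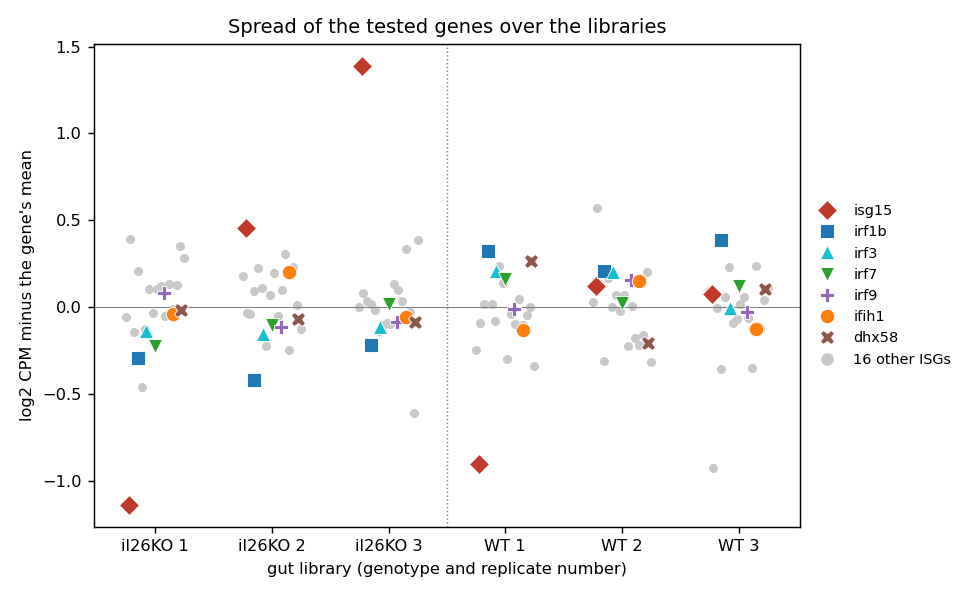
Log2 CPM of each tested gene minus its own mean over the 6 libraries (y axis, log2 units), by library (x axis, il26KO left and WT right). Coloured symbols are the 7 tested members and grey points the 16 further ISGs. isg15 alone of the members departs from 0 by more than 1 log2 unit, downwards in il26KO replicate 1 and upwards in il26KO replicate 3, while irf1b lies below 0 in all 3 il26KO libraries and above 0 in all 3 WT libraries.

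The profile of isg15 was compared with those of all tested genes outside the 10 members. The measure was the root mean square difference of centred log2 CPM over the 6 libraries. The 5 nearest genes were si:ch211-63o20.7, zgc:153343, mitfb, exo1 and dnajc21, at distances of 0.370, 0.413, 0.443, 0.465 and 0.470 log2 units. In the same order, these genes had 13 to 51, 8 to 29, 4 to 21, 10 to 39 and 56 to 182 counts in a library. Counting error adds to profiles at such low counts, and its part in these distances was not tested. The first of them, si:ch211-63o20.7, had 0.636, 1.53 and 1.80 CPM in il26KO replicates 1 to 3, against 0.528, 0.847 and 1.21 CPM in WT replicates 1 to 3. The 5 genes nearest to the mean profile of the 7 tested members were nudc, cog4, atf6, carm1 and atp6v0a2b, at 0.0325 to 0.0403 log2 units. isg15 moved that mean profile in every il26KO library and in WT replicate 1. In il26KO replicates 1, 2 and 3 the mean stood at -0.25, -0.028 and 0.12, with isg15 at -1.14, 0.46 and 1.39. The mean of the other 6 members stood there at -0.11, -0.11 and -0.089. In WT replicates 1, 2 and 3 the mean stood at -0.011, 0.094 and 0.076, and that of the other 6 members at 0.14, 0.090 and 0.076. Without isg15 the mean was thus negative in every il26KO library and positive in every WT library. None of the 10 nearest genes was on any of the other interferon lists (0 of 10), which held only 38 of the 11095 tested genes. With so few listed genes, nothing was read from this count.

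The other 3 effectors were at the limit of detection in both genotypes. The dynamin-like GTPase genes mxa and mxb lie next to each other in the RefSeq gene order of GRCz12tu, with 0 genes between them, and their products block virus replication. mxa had 2, 2 and 5 counts in il26KO replicates 1 to 3, against 5, 3 and 4 counts in WT replicates 1 to 3. Its summed counts were 9 in il26KO and 12 in WT, a ratio of CPM of 0.860 (95% exact interval of counting error 0.320 to 2.22). In il26KO replicates 1 and 2, mxa was under the smallest detectable amount, and the genotypes overlapped.

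mxb had 1, 0 and 1 counts in il26KO replicates 1 to 3, against 4, 2 and 1 counts in WT replicates 1 to 3. The summed counts were 2 in il26KO and 7 in WT, a ratio of 0.328 (95% exact interval 0.0332 to 1.72). Reads that match both paralogs could have been split between mxa and mxb, since the handling of such reads was not stated. rsad2, which encodes the antiviral radical SAM enzyme viperin, had 1, 5 and 4 counts in il26KO replicates 1 to 3, against 2, 2 and 3 counts in WT replicates 1 to 3. Its summed counts were 10 in il26KO and 7 in WT, a ratio of 1.64 (95% exact interval 0.563 to 5.07). No difference was therefore detected at this depth for these 3 genes. Differences of the sizes inside those intervals were not excluded, and the intervals cover counting error only.

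Both cytosolic RNA sensors among the members were tested, and in both the genotypes overlapped. ifih1 encodes Mda5, a helicase that senses double-stranded RNA, and had 3.996, 4.73 and 3.95 CPM in il26KO replicates 1 to 3, against 3.74, 4.57 and 3.76 CPM in WT replicates 1 to 3. In each genotype replicate 2 was the highest. For ifih1 the log2 fold change was 0.061 ± 0.15 (SE), with a 95% confidence interval of -0.28 to 0.40 and an edgeR adjusted p-value of 0.974. Its sign turned without il26KO replicate 2 (-0.036) and without WT replicate 1 (-0.0026).

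dhx58 encodes Lgp2, a helicase of the same family that lacks the signalling domains and modulates the other sensors. It had 6.77, 6.52 and 6.45 CPM in il26KO replicates 1 to 3, against 8.25, 5.93 and 7.35 CPM in WT replicates 1 to 3. The il26KO libraries lay close together (SD 0.164 CPM) inside the wider WT range (SD 1.17 CPM). Between the genotypes, dhx58 had a log2 fold change of -0.12 ± 0.14 (SE), with a 95% confidence interval of -0.45 to 0.20 and an edgeR adjusted p-value of 0.929.

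Among the Irf genes, irf1b had the largest difference. It is a zebrafish counterpart of mammalian Irf1, a transcription factor that binds interferon and ISG promoters and acts in responses to type I and type II interferon. irf1b had 4.81, 4.41 and 5.08 CPM in il26KO replicates 1 to 3, against 7.43, 6.85 and 7.77 CPM in WT replicates 1 to 3. All 3 il26KO libraries lay below every WT library. Over the genotypes, 106, 69 and 144 counts in il26KO stood against 183, 186 and 186 counts in WT, and counts within a genotype varied by no more than counting error (chi-square per degree of freedom 0.615, against 7.66 when the genotypes were taken as one group).

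The mean of irf1b was 4.77 ± 0.336 CPM in il26KO and 7.35 ± 0.466 CPM in WT (SD, n = 3 each). This gave a log2 fold change of -0.62 ± 0.12 (SE), a 0.652-fold level with a 95% confidence interval of 0.541 to 0.785. The edgeR unadjusted p-value of 0.000739 ranked 44 of 11095 genes, and the adjusted p-value was 0.186, so that irf1b did not pass the threshold over all genes. The likelihood ratio test gave an adjusted p-value of 0.0119 and DESeq2 one of 0.0651, and over all the alternatives run the adjusted p-value of irf1b was 0.0119 to 0.525. The log2 fold change stayed between -0.67 and -0.58 when each library was left out in turn.

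irf3 and irf7 encode the factors that are phosphorylated below the nucleic acid sensors and then activate interferon genes. irf3 had 3.50, 3.45 and 3.56 CPM in il26KO replicates 1 to 3, against 4.47, 4.46 and 3.84 CPM in WT replicates 1 to 3. The il26KO libraries lay below every WT library, by 0.28 CPM at the nearest pair. The genotype difference of irf3 on the log2 scale was -0.28 ± 0.13 (SE), with a 95% confidence interval of -0.58 to 0.019 and an edgeR unadjusted p-value of 0.0630 (adjusted p = 0.857).

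irf7, which is itself induced by interferon, had 3.86, 4.22 and 4.58 CPM in il26KO replicates 1 to 3, against 5.08, 4.603 and 4.93 CPM in WT replicates 1 to 3. il26KO replicate 3 and WT replicate 2 were separated by only 0.019 CPM, so that the groups barely failed to overlap. That of irf7 was -0.20 ± 0.13 (SE), with a 95% confidence interval of -0.50 to 0.090 and an edgeR adjusted p-value of 0.892. For irf3 and irf7, counts within a genotype varied by no more than counting error (chi-square per degree of freedom 0.376 and 0.542). With the genotypes taken as one group the values were 1.35 and 0.984, also close to counting error, unlike irf1b. Within a genotype the value was 1.14 for ifih1, 2.54 for dhx58 and 2.19 for irf9.

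irf9 encodes the DNA-binding subunit of the interferon-activated transcription factor complex. It had 18.4, 16.1 and 16.4 CPM in il26KO replicates 1 to 3, against 17.3, 19.4 and 17.1 CPM in WT replicates 1 to 3, and the genotypes overlapped. Accordingly, irf9 had a log2 fold change of -0.080 ± 0.094 (SE), with a 95% confidence interval of -0.30 to 0.14 and an edgeR adjusted p-value of 0.932. With 2488 counts over the 6 libraries this was the most deeply counted and the most narrowly bounded of the 10 genes, and levels below 0.815-fold or above 1.099-fold of WT lay outside its interval.

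**Figure D3:**
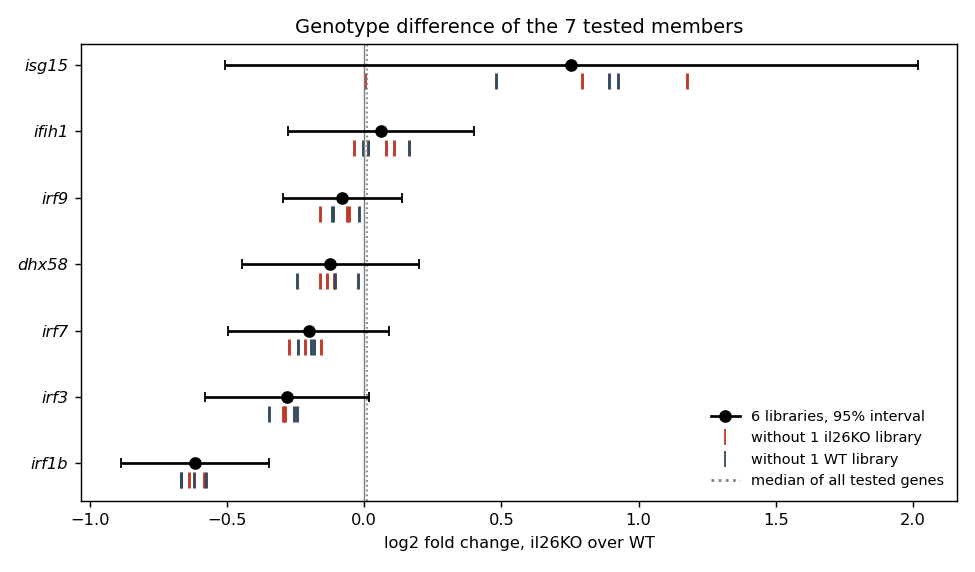
Log2 fold change of il26KO over WT (x axis) for the 7 tested genes, with 95% confidence intervals (black). Ticks under each gene are the values with 1 il26KO library (red) or 1 WT library (blue) left out, and the dotted line is the median of all tested genes (0.011). The interval of irf1b alone lies entirely on one side of 0, from -0.89 to -0.35, and the values of isg15 with a library left out range from 0.0043 to 1.18.

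Of the 7 tested members, the 3 il26KO libraries lay below the 3 WT libraries in 3 (irf1b, irf3 and irf7), where 4.91% of all tested genes did so, and above them in 0, where 5.94% did so. In the remaining 4 the genotypes overlapped. The log2 fold change was negative in 5 of the 7, where 46.8% of all tested genes were negative, and the median was -0.12, against 0.011 for all tested genes. The members were not replicates of each other, and no test was made over them. They were chosen with earlier results of these data known, so no excess was read from these shares.

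The leukocyte content of the guts was examined beside the Irf genes, several of which are expressed in macrophages and lymphocytes. Summed over 17 listed leukocyte markers, the level was 38.6 to 44.7 CPM in il26KO and 37.4 to 42.6 CPM in WT, and the defining markers mpeg1.1 and lck were listed at 0 in every library. Of the 11 leukocyte markers with enough counts, 10 overlapped between the genotypes, and 1 did not, where 10.9% of all tested genes did not. The exception, chosen after its values were seen, was the macrophage gene mfap4, with 2.27, 2.11 and 1.83 CPM in il26KO replicates 1 to 3, against 2.92, 2.76 and 2.76 CPM in WT replicates 1 to 3 (log2 fold change -0.45 ± 0.16, SE; edgeR adjusted p = 0.717). Among the 10 that overlapped, log2 fold changes were 0.044 ± 0.17 for csf1ra, -0.0011 ± 0.26 for spi1b, 0.32 ± 0.33 for cd74a and 0.31 ± 0.21 for cd74b (SE). They were 0.10 ± 0.11 for lcp1, 0.067 ± 0.30 for mpx, 0.38 ± 0.30 for mmp9, -0.12 ± 0.44 for mmp13a and -0.0086 ± 0.28 for il2rga (SE). For lyz the value was -0.51 ± 0.32 (SE), the lowest of the list. The part of macrophages in the irf1b, irf3 and irf7 values was not tested.

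The remaining Irf genes were compared with those above. Of 10 other Irf symbols, 8 were listed and 7 tested, and 0 passed the edgeR threshold (0 by DESeq2 or the likelihood ratio test). At an unadjusted edgeR p-value below 0.05 there was 1 of the 7, where 6.03% of all tested genes passed. The unlisted symbol irf11 is a RefSeq synonym of irf1b and not a further gene. irf5, a factor below Toll-like receptors, had 8.85, 8.18 and 9.84 CPM in il26KO replicates 1 to 3, against 10.5, 10.7 and 11.7 CPM in WT replicates 1 to 3. The il26KO libraries lay below every WT library, with a log2 fold change of -0.28 ± 0.11 (SE; edgeR unadjusted p = 0.0276, adjusted p = 0.746). irf8, which directs macrophage development, lay on the other side, with 2.04, 2.17 and 2.15 CPM in il26KO replicates 1 to 3, against 1.79, 1.18 and 1.96 CPM in WT replicates 1 to 3, and a log2 fold change of 0.37 ± 0.22 (SE, adjusted p = 0.884 in the edgeR test). irf2, which counters Irf1 at shared sites in mammals and had the most counts of this list, differed by 0.029 ± 0.069 on the log2 scale (SE) at an edgeR adjusted p-value of 0.974.

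The paralog of irf1b, irf1a, had only 2 to 6 counts in any library and was not tested. Taken over both lists, 11 Irf genes were tested, of which the il26KO libraries lay below WT in 4, above WT in 1, and overlapped in 6, where 4.91% of all tested genes lay below and 5.94% above. Their median log2 fold change was -0.013, close to that of all tested genes. Both lists were chosen with earlier results of these data known, so no excess was read from these counts.

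Upstream of the members, the interferon genes themselves were hardly seen. ifnphi1 had 3, 2 and 6 counts in il26KO replicates 1 to 3, against 0, 5 and 3 counts in WT replicates 1 to 3. ifnphi3 had 0 counts in every il26KO library, against 1, 2 and 1 counts in WT replicates 1 to 3, which is at or below the smallest detectable amount in both genotypes. The type II interferon gene ifng1 had 3 counts in all, and ifnphi2, ifnphi4 and ifng1r were listed at 0 in every library. None of the 6 interferon genes could be tested.

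Of the receptor chains, Jak kinases and Stat factors, no receptor chain could be tested, and none of the tested Jak and Stat genes was called. Of 13 symbols, 8 were listed and 5 tested, with 0 called (0 by DESeq2 or the likelihood ratio test). At an unadjusted edgeR p-value below 0.05 there were 0 of the 5, where 6.03% of all tested genes passed. The log2 fold changes of the 5 lay between -0.11 and 0.050. The lowest was that of stat2, -0.11 ± 0.12 (SE), and the highest that of jak2a, 0.050 ± 0.10 (SE). The receptor chain genes crfb1 and crfb2 were listed at 0 in every library, and the other receptor chain symbols were not listed.

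Of 13 symbols for nucleic acid sensing, 11 were listed and 10 tested, again with 0 called (0 by DESeq2 or the likelihood ratio test). At an unadjusted edgeR p-value below 0.05 there was 1 of the 10, where 6.03% of all tested genes passed. ticam1, the adaptor of Toll-like receptor signalling to interferon, had 13.5, 17.2 and 16.1 CPM in il26KO replicates 1 to 3, against 18.3, 19.96 and 17.7 CPM in WT replicates 1 to 3. Its log2 fold change was -0.26 ± 0.11 (SE; edgeR unadjusted p = 0.0422, adjusted p = 0.811), the lowest of this list, and the genotypes did not overlap. The kinase gene ikbke had the highest, 0.45 ± 0.34 (SE), from only 8 to 14 counts in a library. In trim25, named after its values were seen, the il26KO libraries lay above every WT library (log2 fold change 0.18 ± 0.086, SE; edgeR adjusted p = 0.857). The genotypes thus did not overlap in 2 of the 10 tested genes, where 10.9% of all tested genes did not. tbk1, the most counted of the list, had a log2 fold change of 0.034 ± 0.080 (SE), so that the kinase shared by these routes differed little beside its error.

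The further ISGs were compared last. Of 61 symbols, 31 were listed, 7 of these at 0 in every library, and 16 were tested. None was called (0 by DESeq2 or the likelihood ratio test). At an unadjusted edgeR p-value below 0.05 there were 2 of the 16, both higher in il26KO, where 6.03% of all tested genes passed in either direction. These 2 genes, named after their values were seen, were lgals9l1 (log2 fold change 0.31 ± 0.12, SE) and rnf213a (0.22 ± 0.088, SE), with edgeR adjusted p-values of 0.774 and 0.805. In rnf213a, alone of the 16, the genotypes did not overlap, and its il26KO libraries lay above every WT library. For the whole list, the median log2 fold change was 0.092, with a range of -0.16 to 0.43. The highest, 0.43 ± 0.27 (SE), was that of the Tudor domain gene tdrd7b, and the lowest, -0.16 ± 0.20 (SE), that of gig2p. ftr82, a fish TRIM gene and the most counted, had a log2 fold change of -0.037 ± 0.088 (SE). ifit11, of the Ifit family whose members bind viral RNA in mammals, had 1.73, 2.05 and 1.80 CPM in il26KO replicates 1 to 3, against 1.503, 1.84 and 1.92 CPM in WT replicates 1 to 3, and overlapped between the genotypes. Over all 38 tested genes of the interferon lists outside the members, the il26KO libraries lay above WT in 3 and below in 2. Of all tested genes, 5.94% lay above and 4.91% below.

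The Mx genes outside the 10 members also had too few counts to be tested. mxc had 17, 4 and 3 counts in il26KO replicates 1 to 3, against 5, 1 and 17 counts in WT replicates 1 to 3. mxe had 1, 0 and 11 counts in il26KO replicates 1 to 3, against 2, 8 and 10 counts in WT replicates 1 to 3. mxg had 5, 1 and 6 counts in il26KO replicates 1 to 3, against 3, 1 and 0 counts in WT replicates 1 to 3. In all 3 genes the genotypes overlapped.

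**Figure D4:**
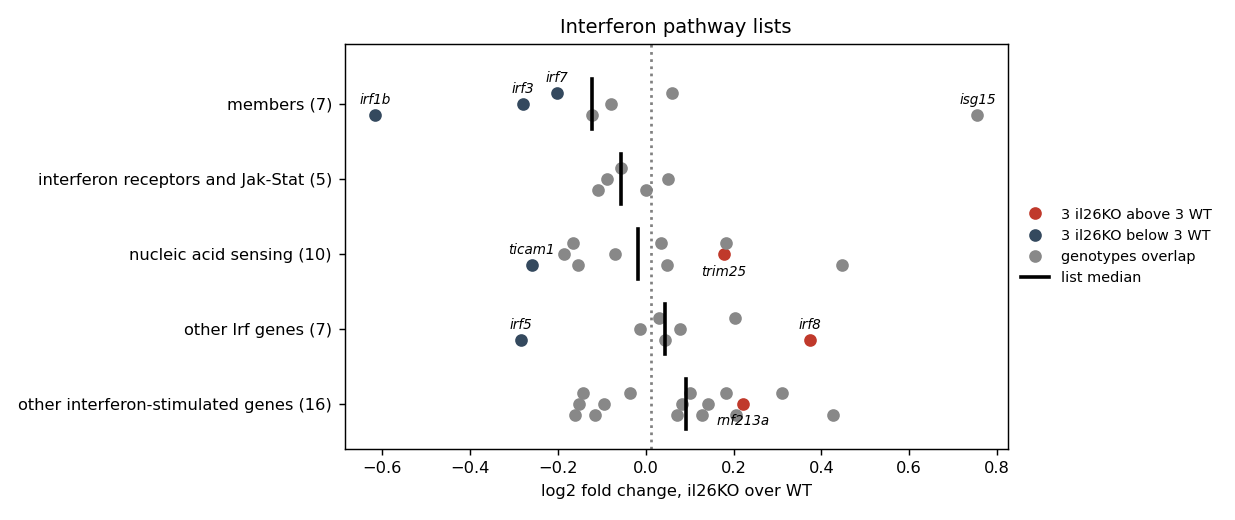
Log2 fold change of il26KO over WT (x axis) for each tested gene of 5 lists (rows, number tested in brackets). Blue points are genes whose 3 il26KO libraries all lie below the 3 WT libraries, red points those whose il26KO libraries all lie above, grey points those that overlap, black lines the list medians and the dotted line the median of all tested genes (0.011). irf1b and isg15 lie farthest from 0, and the points of the other 4 lists lie between -0.28 and 0.45.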

How the data were processed

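The values deposited by the authors were raw counts per gene symbol, with no normalization. Per the labels, stranded poly(A) libraries were sequenced with paired-end reads of 100 bp, checked with FastQC (v0.11.8) and aligned to danRer11. Which aligner, counter and annotation were used, and how strand and shared reads were treated, is not given in the sources used here. Values of paralogs, overlapping genes and antisense genes were therefore uncertain.

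Columns were assigned through the library names in the labels, and groups and replicate numbers through the titles. There were 0 further columns. Nothing stated whether the pools came from separate clutches, so p-values measure the spread between these pools.

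The analysis used edgeR 4.0.16 under R 4.3.3. Low genes were removed with filterByExpr (minimum count 10, minimum total count 15), which left 11095 of 15419. Genotype was the only factor, library sizes were TMM-normalized, and the quasi-likelihood test of il26KO over WT was run on all genes, with Benjamini-Hochberg adjustment and a threshold of 0.05, two-sided. Standard errors were taken from the ratio of log2 fold change to root F. Log2 CPM used a prior count of 2. Intervals of summed counts are exact and cover counting error only, as PCR duplicates of one molecule count repeatedly.

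The 10 genes and the lists were chosen with earlier results of these data known. All 10 genes were described. From each interferon list the text names any called gene, the tested genes with the highest and the lowest log2 fold change, and the most counted gene. The values of 1 listed gene are not reported here. From the profile comparison it names the 5 nearest genes. Other genes were named after their values were seen. All 10 symbols matched the RefSeq gene table of GRCz12tu, which was used only for gene order and synonyms, and no coordinates or sequences are given. The alternatives were RLE size factors, a minimum of 10 counts in every library, no filter, each library left out, a replicate block, DESeq2 1.42.0, the likelihood ratio test, a robust fit and a prior count of 0.5.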

Additional observations from a re-analysis of the deposited data

How the results depend on the processing

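The number of members called was 0 in every alternative except the edgeR likelihood ratio test, which called 1 (irf1b). The number of called genes on the other interferon lists was 0 in all of them. Over all genes, 12 genes were called, with 83 under DESeq2 and 93 under the likelihood ratio test, and 3 to 8 when a library was left out. The log2 fold change of ifih1 ranged from -0.036 to 0.16 when a library was left out, and that was the only sign among the 7 members to turn. Fits with a library left out have fewer degrees of freedom. Otherwise the cause was not tested.

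With the replicate block, 2 genes were called over all genes and 0 of the members, and irf1b had an edgeR adjusted p-value of 0.408. The titles give a shared number only, and the deviations of same-numbered libraries correlated at -0.23, -0.043 and 0.11 for replicates 1, 2 and 3. With a prior count of 0.5, 4 of the 5 genes nearest to isg15 and 5 of the 5 nearest to the mean profile were shared. mxa, mxb and rsad2 had at most 5 counts in a library, and the reason for these low counts was not tested.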
